A study of Homo sapiens with 39 samples.

Results

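KLK2, KLK3, KLK4 and KLK15 are the kallikrein genes for which the prostate is best known, and they are described here across every treatment group of the study. They were taken by symbol from the table of counts per gene, where each symbol matched 1 Ensembl gene, which gave 4 genes of the 63187 in the table. All 4 passed the filter on low counts in both experiments.

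Tissue kallikreins are secreted serine proteases made as inactive precursors and encoded side by side on chromosome 19. In the luminal cells of the prostate their transcription is driven by androgens, through steroid response elements upstream of KLK3 and KLK2. KLK3 encodes prostate-specific antigen (PSA), the serum marker used to follow prostate cancer, which cleaves semenogelins and so liquefies semen. KLK2 encodes a trypsin-like protease able to activate the PSA precursor, KLK4 a trypsin-like protease that is also needed for maturing tooth enamel, and KLK15 a protease described as a further activator of the PSA precursor.

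RNA-seq was performed on C4-2B, a castration-resistant human prostate cancer cell line, grown in serum-containing medium, in 2 experiments with 3 libraries per group. In the 5-day panel (21 libraries, 7 groups), cells received DMSO, an ARPi (5 µM abiraterone or 20 µM enzalutamide), a PARPi (1 µM olaparib or 10 nM talazoparib), or both classes together. The combinations were abiraterone with olaparib and enzalutamide with talazoparib, at the doses of the single drugs. Abiraterone and enzalutamide, the class called ARPi, block androgen synthesis and androgen signaling, respectively, and PARP inhibitors (PARPi) block the PARP enzymes of DNA repair. In the time course (18 libraries, 6 groups), cells received DMSO, olaparib at 1 µM or olaparib at 5 µM for 1 day or 5 days, with DMSO collected on both days. All groups come from 1 cell line, and the labels do not say whether replicates were separate cultures, so p-values measure the spread between these libraries only.

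The total count per library lay between 26932205 and 49833473, with a median of 37223200. Libraries of 1 group differed by more than the sampling of reads, with a chi-square per degree of freedom of 2.18 to 6.03 over genes. In the time course, replicate 3 of 5 µM olaparib on day 1 stood apart from its group: it gave 5.995 and 5.87 against the other libraries, which gave 2.28 against each other. The panel held values of similar size. DMSO A and C gave 6.03 against each other. Talazoparib A gave 5.01 and 5.54 against B and C, which gave 3.87. Enzalutamide plus talazoparib A gave 4.32 and 5.39 against B and C, which gave 2.96. The luminal markers HOXB13, KRT8, KRT18, FOLH1 and TMPRSS2 each had at least 1115 counts in every library. KRT5 and TP63 (basal), CHGA and INSM1 (neuroendocrine), DCN (fibroblast), CD3E (leukocyte) and PECAM1 (endothelial) had at most 4 counts in any library. Other members of these lists were counted, with 266 to 789 counts for VWF, 362 to 1032 for COL1A1, 79 to 1054 for CD68, 24 to 87 for SYP and up to 68 for KRT14, 47 for PTPRC, 29 for COL3A1 and 10 for CDH5.

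The 4 genes lie within 1 stretch of chromosome 19 (GRCh38). KLK15 (ENSG00000174562.14) spans chr19:50825289-50837213 on the minus strand, KLK3 (ENSG00000142515.16) spans chr19:50854915-50860764 on the plus strand, KLK2 (ENSG00000167751.13) spans chr19:50861568-50880567 on the plus strand, and KLK4 (ENSG00000167749.12) spans chr19:50906351-50911395 on the minus strand. The canonical transcripts have 5 exons for KLK2 and KLK3 and 6 exons for KLK4 and KLK15, with lengths of 2829 bases for KLK2, 1464 bases for KLK3, 1416 bases for KLK4 and 1357 bases for KLK15. The canonical start of KLK2 is at base 50873439, inside the annotated gene. A non-coding gene on the opposite strand overlaps KLK15, and it had at most 4 counts in any library.

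KLK2 and KLK3 are close copies. Their coding sequences, of 786 bases each, were 85.4% identical after global alignment, whereas the other pairs of members were 54.2% to 56.6% identical. In the 250 bases before the canonical start, KLK2 and KLK3 were 79.2% identical, against 44.1% to 48.4% for the other pairs. Of the 31-base words in the canonical transcripts, 3.9% of those of KLK3 and 2.0% of those of KLK2 occur in both genes. How reads that hold these words were assigned was not examined. KLK4 shared 0.9% of its words with other genes, and KLK15 shared 0.0%.

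The upstream windows of KLK3 (chr19:50854665-50854914, plus strand) and KLK2 (chr19:50873189-50873438, plus strand) are printed because they are the most alike pair and because 1 base of a steroid response element differs between them. The sequences are RefSeq's, build GRCh38.p14, 5′ to 3′ on the gene's strand, and capitals mark the AGAACA hexamer of KLK3 and the aligned bases of KLK2.
KLK3: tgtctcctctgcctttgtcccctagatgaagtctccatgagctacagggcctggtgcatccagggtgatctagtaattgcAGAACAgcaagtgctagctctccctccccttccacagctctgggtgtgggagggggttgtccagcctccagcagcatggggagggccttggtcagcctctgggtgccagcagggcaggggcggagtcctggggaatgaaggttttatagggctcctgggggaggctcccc
KLK2: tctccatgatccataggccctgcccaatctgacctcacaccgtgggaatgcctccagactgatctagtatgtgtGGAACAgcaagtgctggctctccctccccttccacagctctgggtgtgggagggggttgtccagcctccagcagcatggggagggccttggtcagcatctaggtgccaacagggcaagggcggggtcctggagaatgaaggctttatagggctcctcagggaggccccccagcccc
AGAACA, the core letters of a steroid response element, was searched on both strands (AGAACA or TGTTCT). The KLK3 window holds it at 170 bases upstream of the start, and 12.4% of all 34943 windows of this length hold it. In KLK2 the aligned bases begin at 176 bases upstream and differ from KLK3 by A1G, with positions counted from 1 at the first base of the hexamer. The windows of KLK2, KLK4 and KLK15 held no AGAACA, and none of the 4 windows held the forkhead motif TGTTTAC or its reverse complement GTAAACA, which occurred in 2.98% of all windows. The palindrome of AGAACA and its reverse complement with 3 bases between them was in none of the 4 windows and in 0.00286% of all windows.

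Of the 15 tissue kallikrein genes, 5 passed the filter on low counts: the 4 members and KLK1, the kallikrein of kidney and salivary gland. KLK3 had 9872 to 76237 counts per library, KLK2 had 416 to 6376, KLK4 had 1094 to 6325 and KLK15 had 60 to 342. KLK1 had 28 to 99 counts, and the other 10 genes, KLK5 to KLK14, had 0 to 7 counts in a library, with KLK9 at 0 in every library. The plot of counts for all tissue kallikreins shows these separate ranges. Levels are given below as CPM, the count of a gene relative to the TMM-scaled library size. Per kb of canonical transcript, the mean level in DMSO of the panel was 990.5 CPM per kb for KLK3, 56.2 for KLK4, 35.7 for KLK2 and 5.31 for KLK15. KLK4 thus stood above KLK2 per kb in DMSO, although KLK2 had more counts. This order rests on the canonical lengths, 2829 bases for KLK2 and 1416 bases for KLK4. Which transcripts the cells made was not examined. In enzalutamide the levels per kb were 208.0 for KLK3, 22.7 for KLK4, 4.95 for KLK2 and 1.57 for KLK15, in the same order.

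**Figure D1:**
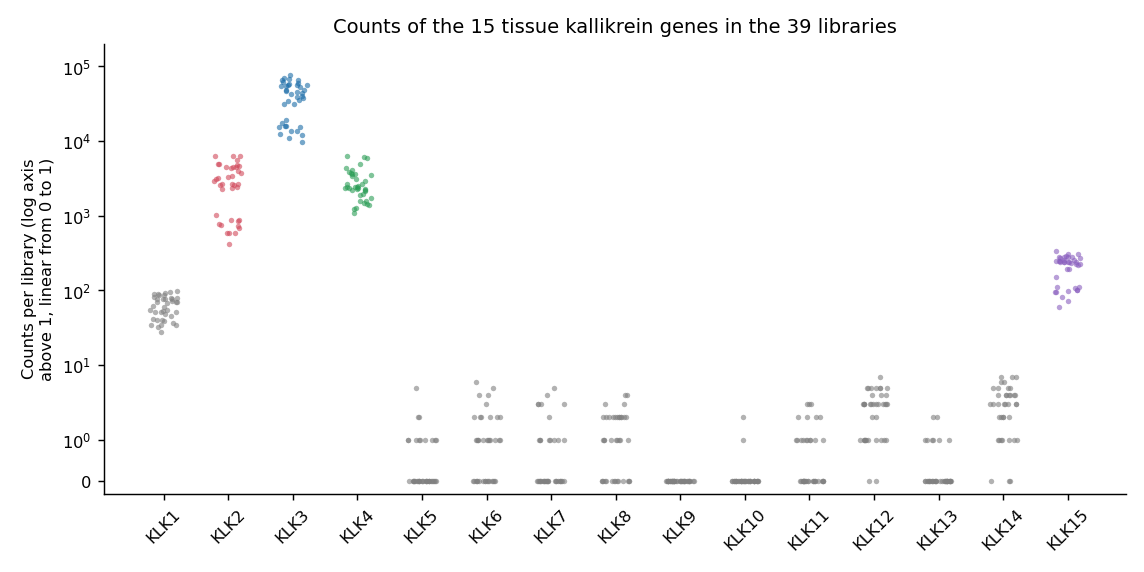
Counts of each of the 15 tissue kallikrein genes, 1 point per library (39 libraries), on an axis that is logarithmic above 1 and linear from 0 to 1. KLK3 lies highest, KLK2 and KLK4 follow, KLK15 and KLK1 lie at 28 to 342 counts, and the 10 grey genes from KLK5 to KLK14 stay at or below 7 counts.

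The first question was what each ARPi did to the kallikreins after 5 days. All 4 genes were lower with abiraterone and lower still with enzalutamide, and KLK2 had the largest fold and KLK4 the smallest under both drugs. Adjusted p-values are from edgeR's quasi-likelihood test with Benjamini-Hochberg adjustment over all 18625 genes of the panel, and a gene was called at an adjusted p under 0.05.

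KLK3 was at 1507, 1409 and 1434 CPM in the DMSO libraries. It was at 460.6, 497.2 and 497.8 CPM with abiraterone and at 329.2, 295.0 and 289.2 CPM with enzalutamide. No library of one group reached the range of another. PSA mRNA was thus 2.99-fold lower with abiraterone (log2 fold change −1.58 ± 0.05 SE, adjusted p = 3.78e-15) and 4.77-fold lower with enzalutamide (−2.25 ± 0.05, adjusted p = 3.02e-17).

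KLK2, the activator of the PSA precursor, was at 104.6, 98.7 and 99.8 CPM in DMSO. It was at 25.6, 24.05 and 25.9 CPM with abiraterone and at 13.9, 13.96 and 14.2 CPM with enzalutamide. These 3 ranges did not overlap either. KLK2 was 4.01-fold lower with abiraterone (−2.003 ± 0.04, adjusted p = 1.07e-29) and 7.20-fold lower with enzalutamide (−2.85 ± 0.05, adjusted p = 1.27e-33).

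KLK4 was at 82.4, 77.4 and 79.0 CPM in DMSO, at 45.2, 45.2 and 46.3 CPM with abiraterone, and at 36.5, 30.0 and 29.8 CPM with enzalutamide. Enzalutamide replicate A was the highest of its group and still below every abiraterone library. The fall was 1.75-fold with abiraterone (−0.80 ± 0.05, adjusted p = 1.16e-15) and 2.5-fold with enzalutamide (−1.32 ± 0.05, adjusted p = 4.24e-21).

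KLK15 had few counts. It had 227, 238 and 275 counts in DMSO, 95, 113 and 107 with abiraterone, and 60, 101 and 83 with enzalutamide. In CPM these are 6.93 to 7.71 for DMSO, 2.76 to 3.59 for abiraterone and 1.99 to 2.38 for enzalutamide, and the groups did not overlap. It was 2.24-fold lower with abiraterone (−1.16 ± 0.13, adjusted p = 1.18e-09) and 3.37-fold lower with enzalutamide (−1.75 ± 0.13, adjusted p = 1.09e-13).

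All 4 members were therefore called lower with abiraterone, where 27.1% of all genes tested were, and all 4 with enzalutamide, where 26.3% were. Their median log2 fold change was −1.37 with abiraterone and −2.003 with enzalutamide, whereas the median over all genes tested was 0.0003 and 0.017. Enzalutamide was also compared directly with abiraterone. All 4 were lower with enzalutamide, where 10.1% of genes were called lower, by −0.85 ± 0.05 for KLK2 (adjusted p = 6.21e-15), −0.67 ± 0.05 for KLK3 (adjusted p = 8.46e-09), −0.52 ± 0.05 for KLK4 (adjusted p = 3.28e-09) and −0.59 ± 0.14 for KLK15 (adjusted p = 0.00222) on the log2 scale. Each drug was given at 1 dose only, and so the difference is between these doses.

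**Figure D2:**
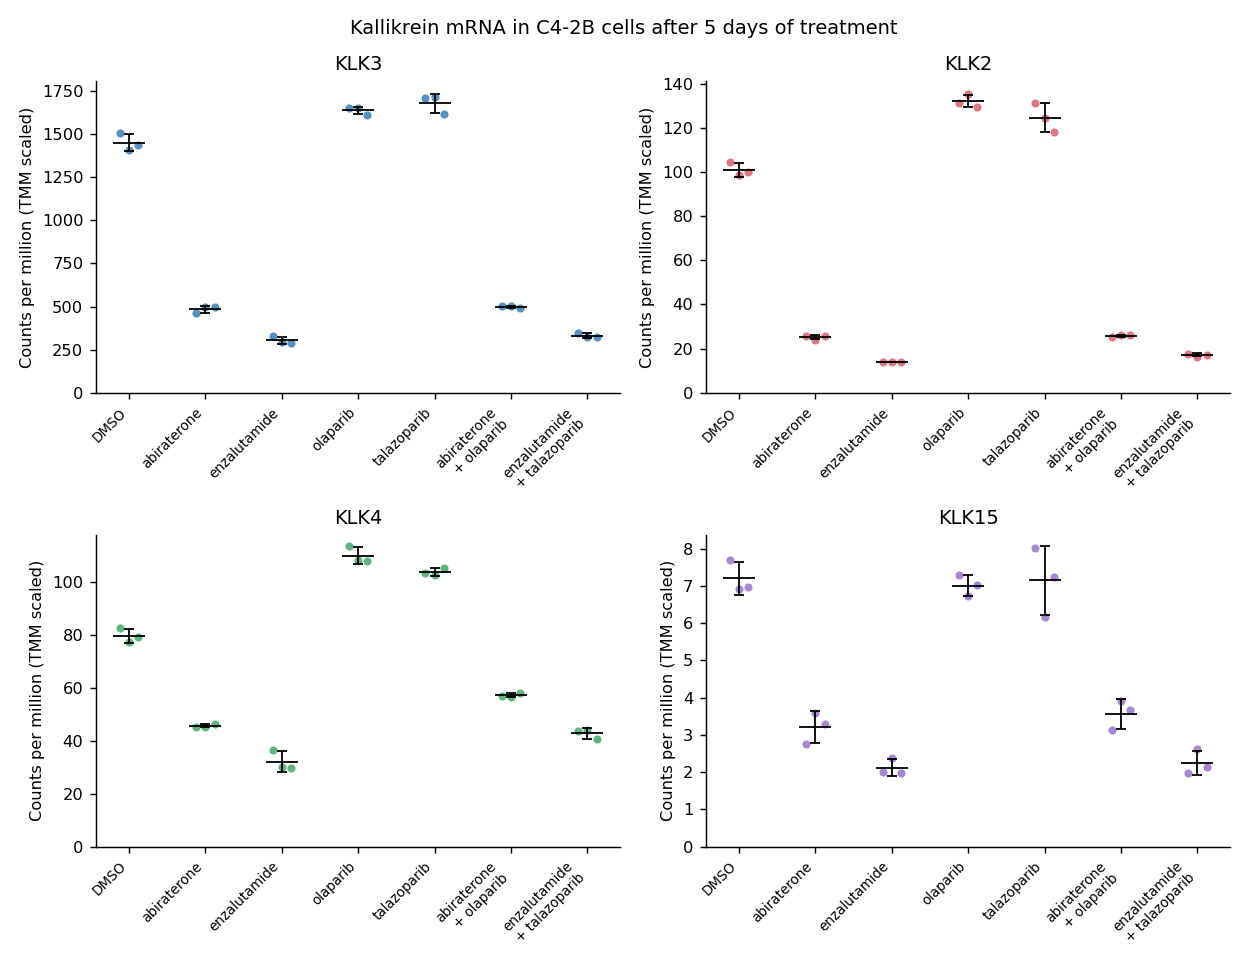
CPM of each kallikrein in the 21 libraries of the 5-day panel, with points for libraries and a black line and bar for the mean ± SD of the 3 libraries of a group; each gene has its own axis from 0. The ARPi groups and the combinations lie below DMSO for all 4 genes, and the PARPi groups lie above DMSO for KLK3, KLK2 and KLK4 but not for KLK15.

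PARPi alone moved 3 of the 4 genes the other way. KLK2, KLK3 and KLK4 were higher with olaparib and with talazoparib after 5 days, by 0.18 to 0.47 on the log2 scale, and KLK15 was not called.

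KLK4 was at 113.5, 108.2 and 107.6 CPM with olaparib and at 103.4, 102.4 and 105.3 CPM with talazoparib, all above the DMSO libraries. It was 1.38-fold higher with olaparib (0.47 ± 0.04 log2, adjusted p = 4.29e-10) and 1.30-fold higher with talazoparib (0.38 ± 0.04, adjusted p = 2.71e-08). KLK2 was at 131.3, 135.1 and 129.5 CPM with olaparib and at 131.1, 124.4 and 118.0 CPM with talazoparib. It rose by 0.39 ± 0.04 (adjusted p = 1.23e-10) and 0.30 ± 0.04 (adjusted p = 3.42e-08) on the log2 scale, and no DMSO library reached either range.

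KLK3 showed the smallest rise of the 3. It was at 1652, 1649 and 1612 CPM with olaparib and at 1707, 1716 and 1616 CPM with talazoparib, above the highest DMSO library at 1507 CPM. The rise was 0.18 ± 0.04 with olaparib (adjusted p = 0.00439) and 0.21 ± 0.04 with talazoparib (adjusted p = 0.00108). KLK15 had 277, 238 and 245 counts with olaparib and 279, 249 and 342 with talazoparib, and in CPM both groups overlapped DMSO. Its log2 fold change was −0.04 with olaparib (95% interval −0.28 to 0.20) and −0.01 with talazoparib (−0.25 to 0.23), so that changes beyond these bounds are outside the intervals while smaller ones could not be seen at this depth.

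The 3 called members compare with 19.6% of all genes called higher for olaparib and 18.4% for talazoparib. The PARPi, which differ in dose, were also set against each other. None of the 4 was called between talazoparib and olaparib, where 8.36% of genes were called in either direction. The log2 difference, talazoparib minus olaparib, was −0.09 for KLK2 (95% interval −0.16 to −0.01, adjusted p = 0.144), 0.04 for KLK3 (−0.06 to 0.13), −0.08 for KLK4 (−0.17 to 0.01) and 0.03 for KLK15 (−0.21 to 0.27). Without adjustment KLK2 alone passed 0.05 in the edgeR fit, and DESeq2 called none.

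The combinations were then compared with DMSO and with their ARPi. All 4 kallikreins stayed far below DMSO in both combinations. Against the ARPi alone, KLK4 was higher in both combinations, KLK2 and KLK3 were called higher with enzalutamide plus talazoparib but not with abiraterone plus olaparib, and KLK15 was called in neither. Whether the combinations differ in this was not tested.

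KLK3 was at 502.9, 502.7 and 492.5 CPM with abiraterone plus olaparib, which is 34.4% of DMSO, against 33.5% with abiraterone. With enzalutamide plus talazoparib it was at 346.7, 322.7 and 323.4 CPM, or 22.8% of DMSO, against 21% with enzalutamide. Each combination overlapped its ARPi in range. KLK2 stood at 25.2, 26.1 and 26.1 CPM with abiraterone plus olaparib, again overlapping abiraterone, and at 17.8, 16.4 and 17.3 CPM with enzalutamide plus talazoparib, above every enzalutamide library.

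KLK4 was the member that the combinations separated from the single ARPi. It was at 56.8, 56.5 and 58.0 CPM with abiraterone plus olaparib, or 71.7% of DMSO, against 57.3% with abiraterone. It was at 43.5, 44.1 and 40.4 CPM with enzalutamide plus talazoparib, or 53.7% of DMSO, against 40.3% with enzalutamide. KLK15 had 96, 152 and 101 counts with abiraterone plus olaparib and 99, 111 and 73 with enzalutamide plus talazoparib, at 49.6% and 31.2% of DMSO, and overlapped the ARPi groups.

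Against DMSO, all 4 were called lower with abiraterone plus olaparib (31.1% of all genes were) and with enzalutamide plus talazoparib (31.3% were). The log2 fold changes were −1.97 and −2.56 for KLK2, −1.54 and −2.13 for KLK3, −0.48 and −0.89 for KLK4, and −1.01 and −1.68 for KLK15, with the largest adjusted p of the 8 at 1.48e-08. Against abiraterone, abiraterone plus olaparib called only KLK4 higher, by 0.32 ± 0.05 log2 (adjusted p = 4.39e-06), where 14.4% of genes were called higher. KLK2 differed by 0.04 (95% interval −0.06 to 0.13) and KLK3 by 0.04 (−0.05 to 0.14) in this comparison.

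Against enzalutamide, enzalutamide plus talazoparib called 3 members higher, where 16.5% of genes were: KLK4 by 0.42 ± 0.05 (adjusted p = 4.74e-08), KLK2 by 0.29 ± 0.05 (adjusted p = 3.07e-05) and KLK3 by 0.12 ± 0.05 (adjusted p = 0.0468). The call of KLK3 was lost when any 1 of 8 libraries was left out (DMSO C, abiraterone B or C, enzalutamide B or C, abiraterone plus olaparib B or C, or enzalutamide plus talazoparib A), with log2 values of 0.0856 to 0.122. It was also lost with scaling by total counts and with only the groups of the comparison in the fit.

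Interaction terms tested whether a PARPi moved a gene differently with an ARPi present. For abiraterone and olaparib, KLK2 alone was called, with an interaction of −0.35 ± 0.06 log2 (adjusted p = 1.08e-04), among 8.08% of genes called lower in this test. Olaparib raised KLK2 by 0.39 on its own, and with abiraterone present the difference was 0.04. The interactions of KLK3 (−0.13 ± 0.06, adjusted p = 0.193) and KLK4 (−0.14 ± 0.07, adjusted p = 0.175) did not pass. The KLK3 interaction was called when genes with low counts were kept (adjusted p = 0.0189) or when only these groups were fitted (adjusted p = 0.0395). For enzalutamide and talazoparib none of the 4 passed, with 12.6% of genes called in either direction, and the interactions ran from −0.09 for KLK3 to 0.08 for KLK15. None of these 4 passed at an unadjusted p under 0.05, and DESeq2 called none. For abiraterone and olaparib, the unadjusted 95% intervals of KLK3 and KLK4 held only negative values, as did that of KLK2. They were −0.27 to −0.00096 for KLK3, −0.28 to −0.0056 for KLK4 and −0.47 to −0.23 for KLK2. The interval of KLK15, −0.17 to 0.56, held values of both signs.

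The time course asked how dose and duration of olaparib bear on the kallikreins. On day 1 PSA mRNA was lower with olaparib, whereas on day 5 KLK2, KLK3 and KLK4 were all higher, and more so at 5 µM. KLK15 was called only with 5 µM on day 1. P-values here are adjusted over 18502 genes.

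On day 1, KLK3 was at 1024, 1074 and 1101 CPM in DMSO. It was at 956.6, 948.3 and 988.9 CPM with 1 µM and at 885.9, 885.3 and 845.6 CPM with 5 µM, and the 3 ranges did not overlap. KLK3 fell by 0.14 ± 0.02 (adjusted p = 4.22e-05) with 1 µM and by 0.29 ± 0.02 (adjusted p = 6.93e-11) with 5 µM on the log2 scale. The difference between the doses, −0.15 ± 0.02, was called too (adjusted p = 1.19e-05).

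KLK2 did not pass on day 1. It was at 65.6, 69.3 and 70.2 CPM in DMSO, at 65.6, 64.0 and 64.3 CPM with 1 µM and at 66.5, 66.9 and 64.6 CPM with 5 µM. Its log2 fold changes were −0.08 ± 0.03 (adjusted p = 0.0514) and −0.05 ± 0.03 (adjusted p = 0.157). With DESeq2 the first was called (adjusted p = 0.0293).

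KLK4 was at 54.9, 57.0 and 60.5 CPM in DMSO, at 59.2, 57.1 and 58.4 CPM with 1 µM and at 63.9, 63.7 and 60.6 CPM with 5 µM on day 1. It was called higher with 5 µM only (0.13 ± 0.03, adjusted p = 0.00272), whose lowest library, at 60.6 CPM, barely cleared the highest DMSO library at 60.5 CPM. It was also higher with 5 µM than with 1 µM (0.11 ± 0.03, adjusted p = 0.0149). That call was lost without 1 µM replicate 2 (0.0934, adjusted p = 0.0802), without 5 µM replicate 1 (0.0940, adjusted p = 0.0791) or without 5 µM replicate 2 (0.0963, adjusted p = 0.0685).

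KLK15 had 197, 285 and 245 counts in DMSO on day 1, 286, 309 and 284 with 1 µM and 308, 275 and 242 with 5 µM. In CPM, DMSO ran from 5.60 to 6.72, 1 µM from 6.91 to 7.45 and 5 µM from 6.53 to 7.89, so that 1 µM lay above every DMSO library and 5 µM overlapped DMSO. The log2 fold change was 0.21 ± 0.09 with 1 µM (adjusted p = 0.099) and 0.24 ± 0.09 with 5 µM, which was called (adjusted p = 0.0213). This call was lost without DMSO replicate 1 (0.176, adjusted p = 0.138), 5 µM replicate 1 (0.195, adjusted p = 0.116) or 5 µM replicate 2 (0.208, adjusted p = 0.0888), and with DESeq2 (adjusted p = 0.0564).

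On day 1 the called members were 1 lower with 1 µM (9.52% of all genes were), 1 lower and 2 higher with 5 µM (23.4% lower and 21.6% higher), and 1 lower and 1 higher with 5 µM against 1 µM (15.9% lower and 12.8% higher). KLK3 was the member called lower in all 3 comparisons. Replicate 3 of 5 µM was the lowest of its group for all 4 members. Without it, the log2 fold change with 5 µM was −0.27 for KLK3 (adjusted p = 1.85e-12), 0.15 for KLK4 (adjusted p = 0.00129), 0.33 for KLK15 (adjusted p = 0.00383) and −0.04 for KLK2 (adjusted p = 0.398), and the difference of 5 µM from 1 µM was −0.12 for KLK3 (adjusted p = 4.38e-05) and 0.13 for KLK4 (adjusted p = 0.00716). The same members were called in these comparisons with and without this library.

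By day 5 the order of the doses had turned for KLK3. It was at 1249, 1255 and 1232 CPM in DMSO, at 1486, 1498 and 1500 CPM with 1 µM and at 1866, 1871 and 1902 CPM with 5 µM. KLK3 was 1.2-fold higher with 1 µM (0.26 ± 0.02, adjusted p = 3.04e-10) and 1.51-fold higher with 5 µM (0.59 ± 0.02, adjusted p = 1.00e-17).

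KLK2 was at 83.4, 87.8 and 86.3 CPM in DMSO, at 124.8, 121.0 and 122.8 CPM with 1 µM and at 178.5, 175.3 and 177.5 CPM with 5 µM on day 5. It was 1.43-fold higher with 1 µM (0.52 ± 0.03, adjusted p = 6.34e-18) and 2.06-fold higher with 5 µM (1.05 ± 0.03, adjusted p = 1.89e-28).

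KLK4 rose most. It was at 65.4, 64.0 and 68.2 CPM in DMSO, at 93.7, 99.7 and 96.4 CPM with 1 µM and at 168.8, 177.5 and 173.5 CPM with 5 µM. For KLK4, as for KLK2 and KLK3, the 3 groups of day 5 stood apart without overlap. It was 1.47-fold higher with 1 µM (0.55 ± 0.03, adjusted p = 1.10e-16) and 2.63-fold higher with 5 µM (1.40 ± 0.03, adjusted p = 2.41e-30).

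KLK15 had 257, 196 and 244 counts in DMSO on day 5, 241, 238 and 253 with 1 µM and 222, 228 and 235 with 5 µM. In CPM, DMSO ran from 5.31 to 6.28, 1 µM from 6.45 to 7.06, above every DMSO library, and 5 µM from 6.22 to 6.61, which overlapped both. Its log2 fold change was 0.21 with 1 µM (95% interval 0.03 to 0.39, adjusted p = 0.0514) and 0.16 with 5 µM (−0.03 to 0.34, adjusted p = 0.124). The interval with 5 µM does not reach the rise of any of the other 3 members at that dose.

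KLK2, KLK3 and KLK4 were thus the 3 members called higher with 1 µM (23.4% of all genes were) and with 5 µM (34.4% were) on day 5. They were also called higher with 5 µM than with 1 µM (26.6% were), by 0.53, 0.33 and 0.84 on the log2 scale. DMSO itself differed between days: KLK2 was 0.33, KLK3 0.22 and KLK4 0.20 log2 higher on day 5 than on day 1 (largest adjusted p = 3.61e-05), with 11.1% of genes called higher, and KLK15 was not called (−0.12, adjusted p = 0.373). Each olaparib group was therefore compared with DMSO of its own day.

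The effect of olaparib differed between days by the interaction test for KLK2, KLK3 and KLK4. At 1 µM the effect on day 5 exceeded that on day 1 by 0.60 ± 0.04 for KLK2, 0.41 ± 0.03 for KLK3 and 0.54 ± 0.05 for KLK4 (largest adjusted p = 1.83e-10), where 15.6% of genes had a higher effect on day 5. At 5 µM it exceeded it by 1.10 ± 0.04, 0.88 ± 0.03 and 1.27 ± 0.05 (largest adjusted p = 1.04e-17), where 27.2% did. For KLK15 the interaction was −0.0004 ± 0.13 at 1 µM and −0.09 ± 0.13 at 5 µM, and neither was called.

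**Figure D3:**
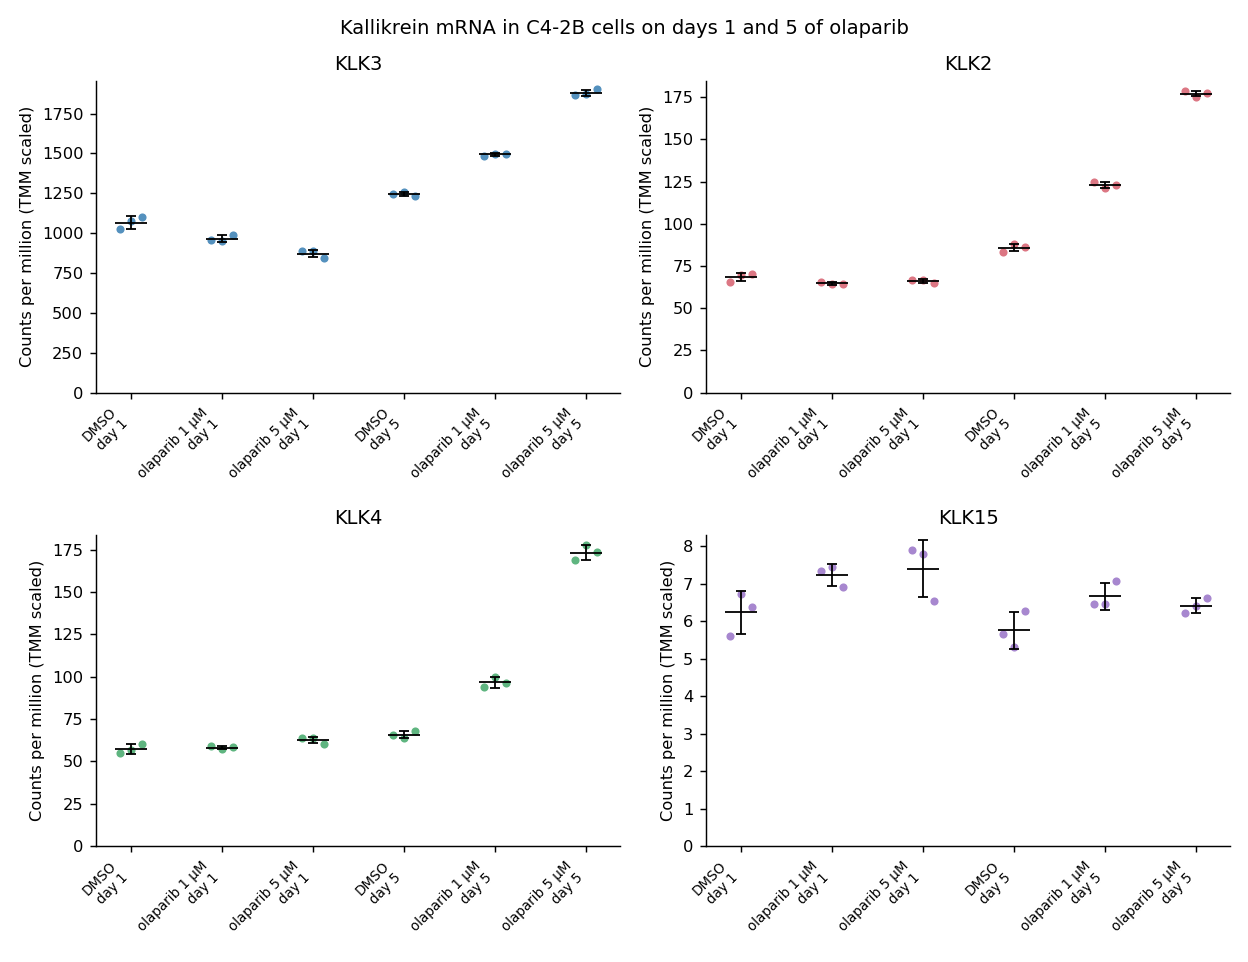
CPM of each kallikrein in the 18 libraries of the time course, with points for libraries and a black line and bar for the mean ± SD of 3 libraries; each gene has its own axis from 0. KLK3 steps down with dose on day 1 and up on day 5, KLK2 and KLK4 step up on day 5, and the KLK15 groups lie between 5.31 and 7.89 CPM.

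Olaparib at 1 µM for 5 days was tested in both experiments with separate DMSO libraries. KLK2 rose by 0.39 in the panel and 0.52 in the time course, KLK3 by 0.18 and 0.26, and KLK4 by 0.47 and 0.55 on the log2 scale. The log2 fold change of KLK15 was −0.04 and 0.21. The difference between the experiments was not tested.

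**Figure D4:**
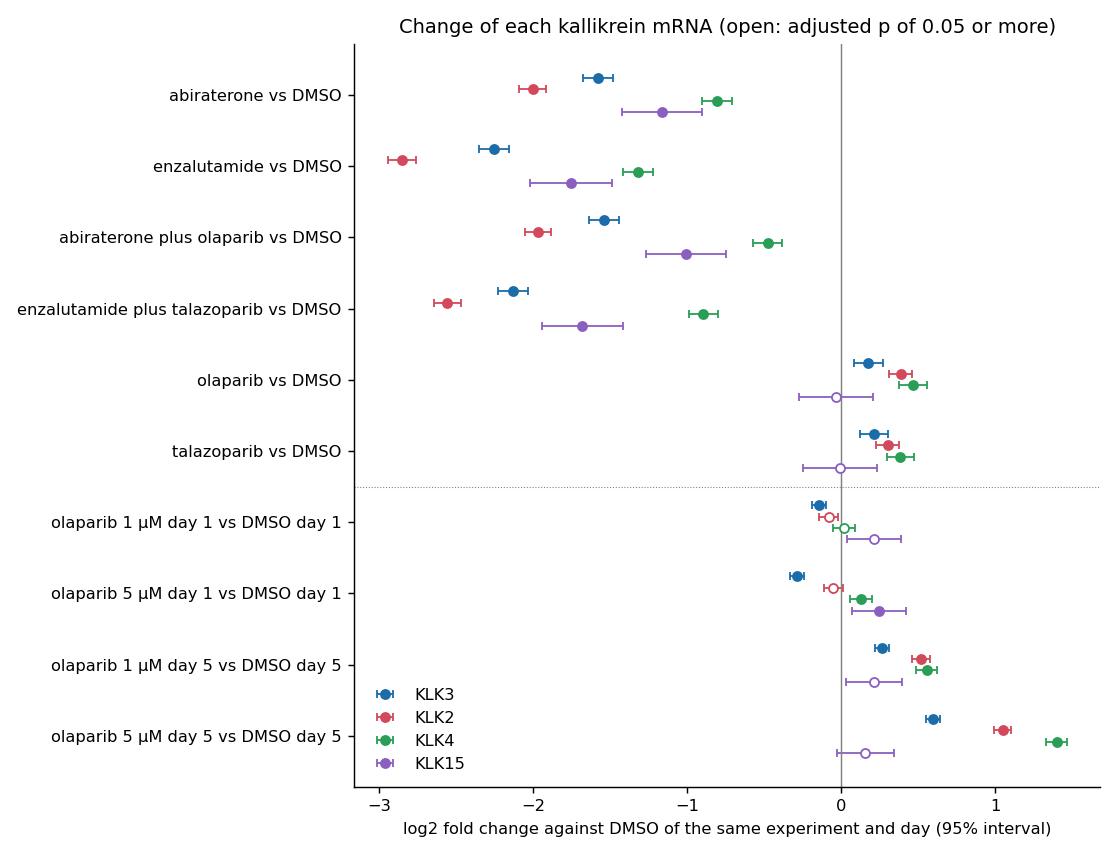
log2 fold change of each kallikrein against DMSO of the same experiment and day, with 95% intervals from the fit, for the 6 panel comparisons (above the dotted line) and the 4 time-course comparisons (below it); open points had an adjusted p of 0.05 or more. KLK2 lies furthest left under the ARPi, KLK4 furthest right under olaparib on day 5, and KLK15, with 60 to 342 counts per library, has the widest intervals.

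Because the 4 genes moved by different amounts, their proportions within a library changed. Ratios within a library do not depend on how libraries are scaled. With 3 libraries against 3, no exact permutation test can give a two-sided p below 0.1, and so ranges are given. KLK4 counts per 1000 KLK3 counts were 54.7 to 55.1 in DMSO of the panel. They were 91.0 to 98.1 with abiraterone, 101.7 to 110.8 with enzalutamide, 112.5 to 117.8 with abiraterone plus olaparib and 125.0 to 136.6 with enzalutamide plus talazoparib. With olaparib they were 65.6 to 68.7, and with talazoparib 59.7 to 65.2. The proportion of KLK4 to PSA mRNA was therefore above DMSO in every treated library of the panel, whether PSA mRNA had fallen or risen.

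The same held in the time course for KLK4. DMSO had 53.1 to 54.9 KLK4 counts per 1000 KLK3 counts on day 1 and 51.0 to 55.3 on day 5. Olaparib at 1 µM had 59.0 to 61.9 on day 1 and 63.1 to 66.6 on day 5. Olaparib at 5 µM had 71.6 to 72.1 on day 1 and 90.5 to 94.9 on day 5, and none of these ranges reached DMSO of the same day.

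KLK2 relative to KLK3 was below DMSO with an ARPi, alone or in a combination, and above it with a PARPi alone. It was 69.4 to 70.0 counts per 1000 in DMSO of the panel, 48.4 to 55.5 with abiraterone, 42.1 to 49.1 with enzalutamide, 79.5 to 81.9 with olaparib and 72.5 to 76.8 with talazoparib. It was 50.2 to 53.1 with abiraterone plus olaparib and 50.9 to 53.4 with enzalutamide plus talazoparib. In the time course its mean rose from 68.9 ± 1.86 (SD, n = 3) in DMSO of day 5 to 94.2 ± 1.26 with 5 µM olaparib. KLK15 relative to KLK3 was 4.86 to 5.12 per 1000 in DMSO of the panel, above that under both ARPi (5.99 to 8.08), and below it under both PARPi (3.60 to 4.69). In the time course its highest mean was 8.47 ± 0.66 with 5 µM olaparib on day 1 and its lowest 3.41 ± 0.07 with the same dose on day 5.

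**Figure D5:**
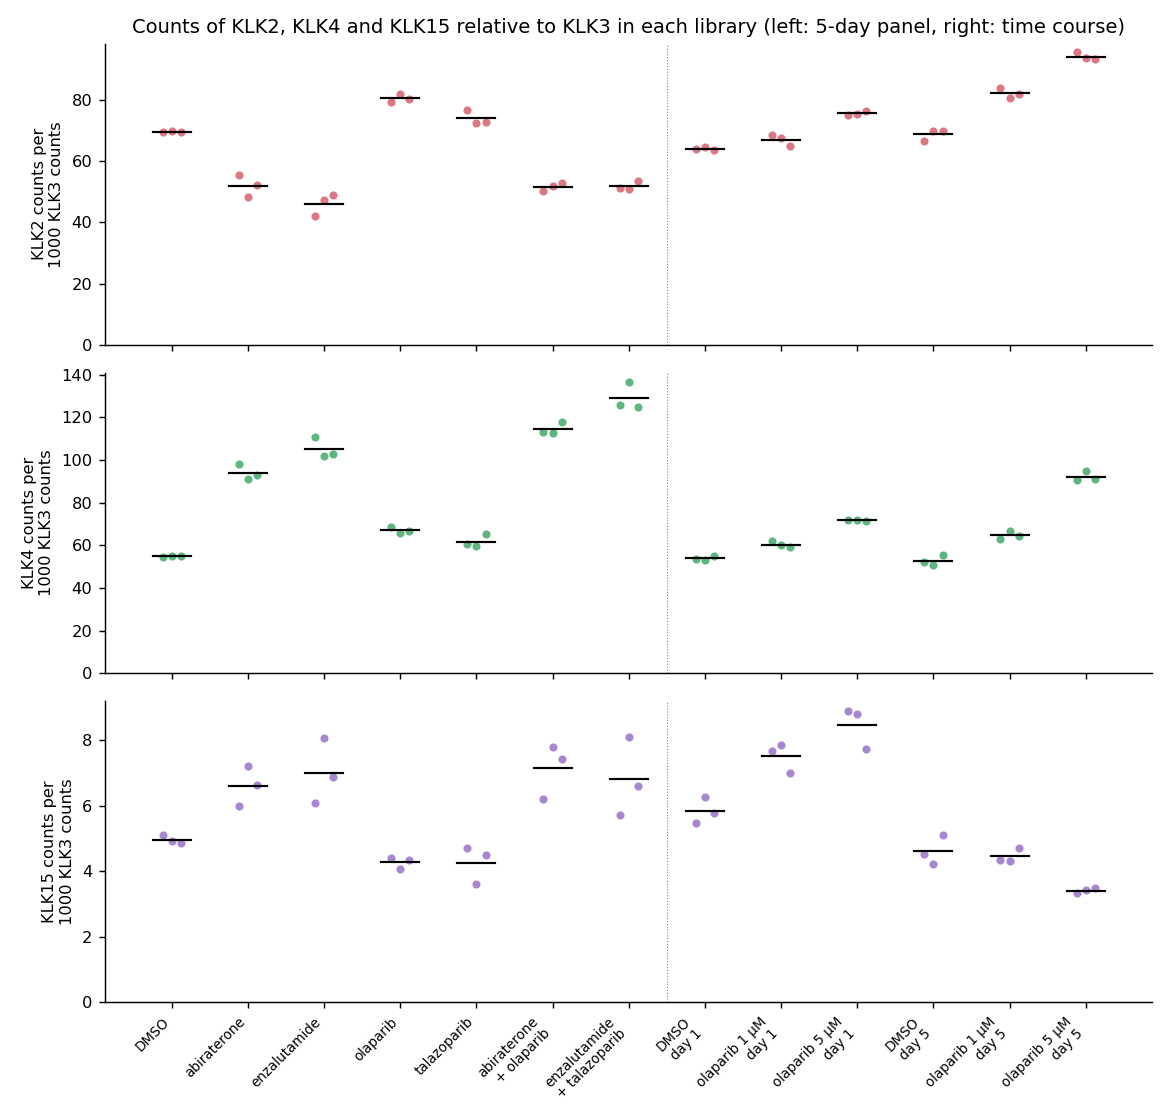
Counts of KLK2, KLK4 and KLK15 per 1000 counts of KLK3 in each of the 39 libraries, by group, with points for libraries and a black line for the mean; the 5-day panel is left of the dotted line and the time course right of it. KLK4 relative to KLK3 is above DMSO of the same experiment and day in every treated group, whereas KLK2 relative to KLK3 is below DMSO with an ARPi and in both combinations, and above it with a PARPi alone.

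Over the 13 groups the patterns of the members were compared as the root mean square difference of log2 CPM group means, centred within each experiment. KLK2 and KLK3 were the nearest pair at 0.25, followed by KLK3 and KLK4 at 0.38 and KLK3 and KLK15 at 0.39, and KLK2 and KLK15 were the furthest apart at 0.60. Among 12101 genes with a mean of at least 100 counts, those nearest to KLK3 were ENDOD1 (0.141) and TUBA3E (0.147). The 3 nearest to KLK2 were MAK (0.167), ELOVL5 (0.189) and TUBA3D (0.209). CAP2 (0.101), MALT1 (0.135) and ANKRD29 (0.141) were nearest to KLK4, and TMTC2 (0.142), FAM174B (0.160) and TRIM2 (0.169) to KLK15. TUBA3D and TUBA3E are near-identical copies, and their counts are uncertain. The median difference from KLK3 over all these genes was 0.803.

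Among the regulators of the luminal programme, FOXA1, a pioneer transcription factor, and HOXB13, a homeobox factor of the prostate, changed by at most 0.29 with any panel treatment, but HOXB13 fell by 0.51 ± 0.02 with 5 µM olaparib on day 5 (adjusted p = 2.99e-21).

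The other 7 prostate secretory and surface genes all passed the filter. With abiraterone, 4 were lower and 2 higher (median −1.57), where 27.1% of all genes were lower and 25.8% higher. With enzalutamide 4 were lower and 2 higher (median −1.82), where 26.3% were lower and 27% higher. TMPRSS2, a membrane serine protease, fell by 2.45 ± 0.08 with abiraterone (adjusted p = 4.94e-13), AZGP1, a secreted zinc-binding glycoprotein, by 1.64 ± 0.03 (adjusted p = 1.32e-29) and MSMB, a seminal plasma protein, by 1.57 ± 0.18 (adjusted p = 5.17e-09). ACP3, prostatic acid phosphatase, rose by 1.15 ± 0.05 (adjusted p = 1.41e-19) and FOLH1, prostate-specific membrane antigen, by 0.34 ± 0.02 (adjusted p = 5.63e-15). With 5 µM olaparib on day 5, 4 of the 7 were higher and 2 lower, where 34.4% of all genes were higher and 33.9% lower, and TMPRSS2 rose by 1.71 ± 0.03 (adjusted p = 7.73e-36).

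Partners of the proteases were read from lists of 9 inhibitors and 7 substrates. Of the inhibitors, 4 passed the filter. With abiraterone, SERPINB6, SPINT1 and SPINT2, which inhibit serine proteases, were higher by 0.13 to 0.14, and SERPINA3, the main serum inhibitor of PSA, was lower by −0.78 ± 0.25 (adjusted p = 0.00882) at 11 to 93 counts per library. Of all genes, 25.8% were called higher and 27.1% lower with abiraterone, and 27% higher and 26.3% lower with enzalutamide. With olaparib, SPINT1 (0.35, adjusted p = 2.95e-11) and SPINT2 (0.10, adjusted p = 0.02) were higher and SERPINA3 was lower (−1.37 ± 0.26, adjusted p = 5.48e-05), where 19.6% of all genes were higher and 16% lower. The same 3 inhibitors were called in the same directions with talazoparib, SPINT1 by 0.19, SPINT2 by 0.12 and SERPINA3 by −1.05 ± 0.25 (adjusted p = 0.00113), where 18.4% were higher and 15.4% lower. With enzalutamide SERPINB6 (0.11, adjusted p = 0.00291), SPINT1 (0.13, adjusted p = 9.80e-04) and SPINT2 (0.23, adjusted p = 7.34e-07) were higher, and the log2 fold change of SERPINA3 was 0.18 ± 0.24 (adjusted p = 0.565). Of the substrates, 3 passed: FN1 (fibronectin) rose by 1.75 ± 0.04 (adjusted p = 2.00e-24) and IGFBP3, a carrier of insulin-like growth factors, by 3.09 ± 0.18 (adjusted p = 7.99e-10) with abiraterone, while F2RL1, a protease-activated receptor, fell by 0.55 ± 0.05 (adjusted p = 4.23e-12). With enzalutamide the same 2 were higher (FN1 by 0.93, IGFBP3 by 3.25) and F2RL1 was lower (−0.58). With a PARPi, FN1 and F2RL1 were both higher, FN1 by 0.54 ± 0.04 with olaparib (adjusted p = 2.11e-12) and 0.44 with talazoparib, and F2RL1 by 0.55 ± 0.04 (adjusted p = 2.32e-12) and 0.40, while IGFBP3 was not called (0.48, adjusted p = 0.125, and 0.07, adjusted p = 0.855). With 5 µM olaparib on day 5 all 3 were higher, by 1.05 for FN1, 2.52 for IGFBP3 and 0.75 for F2RL1. At that dose and day 34.4% of all genes were called higher. FN1 was thus higher under both drug classes, whereas F2RL1 was lower with an ARPi and higher with a PARPi. The semenogelins SEMG1 and SEMG2 had at most 4 counts in any library.

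KLK1, the only other kallikrein tested, was lower with abiraterone (−0.81 ± 0.23, adjusted p = 0.00345), with enzalutamide (−1.06 ± 0.23, adjusted p = 2.31e-04) and with both combinations. It was not called with olaparib or talazoparib in the panel, and it was lower with 5 µM olaparib on day 5 (−0.49 ± 0.18, adjusted p = 0.0169).

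Among the markers of other cell types, CD68, a lysosomal protein of the leukocyte list that is also made outside leukocytes, was called higher with olaparib (1.32 log2, adjusted p = 4.95e-08), with talazoparib (1.16, adjusted p = 4.68e-07) and with 5 µM olaparib on day 5 (2.26, adjusted p = 1.06e-20), and lower with abiraterone (−0.73, adjusted p = 4.17e-04) and enzalutamide (−1.14, adjusted p = 2.10e-06). PTPRC, the common leukocyte antigen, was not called with olaparib (adjusted p = 0.764) or talazoparib (adjusted p = 0.413). It was called higher with abiraterone (adjusted p = 6.28e-05) and enzalutamide (adjusted p = 1.74e-06), from 0 to 3 counts in DMSO to 9 to 15 and 14 to 29 counts. CD3E had at most 1 count. The part of these markers in the kallikrein results was not tested. The summed level of the leukocyte list was 4.38 to 7.10 CPM in DMSO of the panel, 14.2 to 15.7 CPM with olaparib and 27 to 29.6 CPM with 5 µM olaparib on day 5. CD68 carried this sum. The fibroblast list was 10.6 to 13.8 CPM in DMSO, 17.5 to 20.2 CPM with an ARPi, 13.2 to 16 CPM with a PARPi and 21.2 to 22.9 CPM with a combination, carried by COL1A1, with DCN at no more than 1 count. The neuroendocrine list, carried by SYP, was 2.25 to 2.72 CPM in DMSO, 0.901 to 1.68 CPM with an ARPi, 1.32 to 1.78 CPM with a PARPi and 0.942 to 1.26 CPM with a combination. SYP, a synaptic vesicle protein, was called lower with abiraterone (−1.15), enzalutamide (−0.69), olaparib (−0.70) and talazoparib (−0.69), with a largest adjusted p of 0.00621. The endothelial list, carried by VWF, was 13.9 to 16.4 CPM in DMSO, 20.7 to 21.3 with abiraterone, 11.6 to 12.7 with enzalutamide and 12.4 to 14.6 with a PARPi. The basal list, carried by KRT14, a basal keratin, was at most 1.94 CPM. KRT14 had 8 to 23 counts in DMSO of the panel, 0 to 7 with abiraterone and 0 to 3 with enzalutamide, both called lower (adjusted p = 0.00989 and 2.11e-04). It had 26 to 63 counts with olaparib (1.33 log2, adjusted p = 0.0209) and 39 to 45 with talazoparib (1.18, adjusted p = 0.0431). On day 5 it was called higher with 1 µM (1.62, adjusted p = 1.49e-06) and 5 µM olaparib (2.07, adjusted p = 2.54e-09), so that its calls with the single drugs in the panel and on day 5 had the directions of those of KLK2, KLK3 and KLK4.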

How the data were processed

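RNA-seq was performed on 39 C4-2B libraries. The authors trimmed the reads with Trim Galore, aligned them to GRCh38 with STAR and deposited expected counts per gene estimated with Salmon, as whole numbers without normalization; how they were rounded is not given in the sources used here. Symbols and transcript lengths came from GENCODE, an earlier release than the authors used, and matched 62666 of 63187 gene IDs. The others held 0.120% of counts.

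From the counts, edgeR 4.0.16 (R 4.3.3) gave CPM, log2 fold changes and p-values: TMM scaling, filterByExpr by group, robust quasi-likelihood tests, 1 fit per experiment over all its groups without covariates, and Benjamini-Hochberg adjustment over all genes tested. Members and gene lists were chosen with earlier results of these data known. Named genes are the 4 members, the listed genes, the neighbours of the cluster and the 3 genes nearest to each member in pattern. On simulated counts of abiraterone against DMSO (17597 genes), the fit called 93 of 100 genes changed by 1 log2 unit, 74 of 100 changed by 0.5 and 14 of 17397 unchanged ones. Only 200 genes were changed in the simulation, whereas 9853 of 18625 were called in the real comparison. These shares therefore need not hold for the tests reported. Alternatives were RLE and total-count scaling, 2 other filters, DESeq2 1.42.0, fits of the compared groups alone, a replicate block and leaving out each library. The proteins were not compared here, and some genes of the lists are not reported here. Same-numbered libraries did not deviate together (correlations of −0.0686 to 0.0636 in the panel and −0.133 to 0.116 in the time course).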

Additional observations from a re-analysis of the deposited data

Results flagged for a closer look

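A total of 7 effects on the kallikreins differed between conditions by the interaction test of edgeR, with adjustment over all genes. The rise of KLK2 with olaparib was smaller with abiraterone present, by −0.35 log2 (adjusted p = 1.08e-04). In this test 8.08% of all genes were called lower. For enzalutamide and talazoparib none of the 4 members was called, with 12.6% of genes called in either direction. The effect of 1 µM olaparib was higher on day 5 than on day 1 by 0.601 log2 for KLK2, 0.408 for KLK3 and 0.535 for KLK4 (adjusted p of 1.86e-14, 1.83e-10 and 2.10e-11). At 1 µM, 15.6% of all genes had a higher effect on day 5. The effect of 5 µM olaparib was higher on day 5 by 1.10 for KLK2, 0.884 for KLK3 and 1.27 for KLK4 (adjusted p of 2.35e-23, 1.04e-17 and 2.95e-23). At 5 µM, 27.2% of all genes had a higher effect on day 5. For KLK3 the sign itself turned, from lower on day 1 to higher on day 5 at both doses, and both days passed on their own. Without replicate 3 of 5 µM olaparib on day 1, which stood apart from both others of its group, the interactions at 5 µM were 1.08 for KLK2, 0.861 for KLK3 and 1.24 for KLK4. With 3 libraries in each group, no test for a single outlying value was made.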

How the results depend on the processing

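Of the 84 pairs of a member and a comparison, 64 kept their direction and their side of the threshold under all 7 other settings and in all 39 refits without 1 library, and 3 of the 55 called pairs lost a call at least once. Calls were lost for KLK3, enzalutamide plus talazoparib against enzalutamide, with total counts (0.105) and with the compared groups alone (0.128), and for KLK15, 5 µM olaparib on day 1, with DESeq2 (0.235). Calls were gained for the KLK3 interaction of abiraterone and olaparib without a filter (−0.139) and with the compared groups alone (−0.124), which made 2 members called, for KLK2 with 1 µM olaparib on day 1 with RLE (−0.0847) and DESeq2 (−0.0864), again 2 members called, and for KLK15 with 1 µM on day 5 with a mean of at least 50 counts (0.218) and with the compared groups alone (0.214). Values near 0 changed sign: the KLK2 interaction of enzalutamide and talazoparib was 0.00228 with RLE, 0.0200 with total counts, 0.00554 with at least 50 counts and 0.00164 with DESeq2, and the KLK15 interaction of 1 µM olaparib and day was 0.00192 with RLE, 0.00151 without a filter and 0.00328 with DESeq2. The cause was not tested.

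Without 1 library, log2 values ranged as follows where a call or sign changed. KLK15 ran from −0.0815 to 0.0126 with olaparib, −0.114 to 0.0685 with talazoparib and −0.0625 to 0.123 between them, where KLK2 ran from −0.125 to −0.0433 and was called without talazoparib replicate A, so that 0 to 1 members were called. KLK3 ran from −0.00261 to 0.0590 for abiraterone plus olaparib against abiraterone. For enzalutamide plus talazoparib against enzalutamide, KLK3 ran from 0.0856 to 0.180 and KLK15 from −0.0428 to 0.173, and the interactions ran from −0.0316 to 0.0595 for KLK2, −0.00924 to 0.133 for KLK4 and −0.0169 to 0.199 for KLK15. On day 1 with 1 µM olaparib, KLK2 ran from −0.110 to −0.0625 and KLK4 from −0.0120 to 0.0567, with 1 to 2 members called, KLK2 being called without DMSO day 1 replicate 1, 5 µM day 1 replicate 3, or 5 µM day 5 replicate 1 or 2. With 5 µM on day 1, KLK2 ran from −0.0803 to −0.0328 (called without DMSO replicate 1) and KLK15 from 0.176 to 0.327, and between the doses KLK4 ran from 0.0934 to 0.132 and KLK15 from −0.0167 to 0.116, with 1 to 2 members called. On day 5, KLK15 ran from 0.159 to 0.276 with 1 µM, called without DMSO day 1 replicate 1 or 2, 5 µM day 1 replicate 3 or DMSO day 5 replicate 3, and from 0.104 to 0.221 with 5 µM, called without DMSO day 5 replicate 3. Its interaction of 1 µM with day ran from −0.0601 to 0.0671.

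With the replicate block, KLK3 for enzalutamide plus talazoparib against enzalutamide was at 0.122 (adjusted p = 0.0255), and no member gained or lost a call. The numbers do not pair the libraries: 3 of 21 libraries in the panel and 3 of 18 in the time course correlated best with their own number. Scaling by total counts moved a member by at most 0.131 log2, but it moved the share of higher calls over all genes by more than 10 points in 11 of 21 comparisons, from 39.8% to 59.9% for 1 µM olaparib on day 1 and from 48.7% to 60.0% for abiraterone. At 60 to 342 counts, KLK15 had standard errors of 0.0859 to 0.185 log2, and changes smaller than its intervals could not be seen.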

Other observations

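The kallikrein pseudogene KLKP1, a non-coding gene of the same cluster, had 47 to 179 counts per library under 1 of its 2 gene IDs and 0 under the other. It was lower with enzalutamide (log2 fold change −0.63 ± 0.16, edgeR adjusted p = 0.00137) and in the combination with talazoparib (−0.40 ± 0.16, adjusted p = 0.0306). It was not called with abiraterone (−0.22 ± 0.16, adjusted p = 0.269). With 5 µM olaparib on day 5 it was higher (0.35 ± 0.15, adjusted p = 0.0437). Of the 10 annotated genes that flank the cluster, CTU1 and SIGLEC9 alone passed the filter on low counts, and neither was called with an ARPi. SIGLEC9, a receptor of myeloid cells, had 0 to 27 counts per library and was called higher with olaparib (adjusted p = 0.00144) and with talazoparib (adjusted p = 0.0150) in the panel. In the time course, 1 of these 2 flanking genes was lower with 5 µM olaparib on day 1 (23.4% of all genes were). On day 5, 1 was higher with 1 µM (23.4% were). With 5 µM on day 5, 1 was higher and 1 lower (34.4% and 33.9% were).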
